A study of Homo sapiens with 4 samples.

Results

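The genes of MHC class I antigen presentation were examined by single-cell RNA sequencing in CHP134, a human neuroblastoma line in long-term culture that carries amplified MYCN. The set was fixed by name and holds 9 of the 60651 gene IDs in the count table: HLA-B, HLA-C, HLA-E, B2M, TAP1, TAP2, TAPBP, NLRC5 and PSMB9. All 9 were found. The cells had been kept for 24 h in 13-cis retinoic acid at 5 µM (13cRA), in doxazosin at 10 µM, in both drugs at these doses (Combination), or in the vehicle DMSO at 0.04%. 13cRA is a retinoid given in neuroblastoma, and doxazosin blocks alpha-1 adrenergic receptors. Each treatment is 1 sample of 1 cell line, dispensed on a nanowell chip (ICELL8) whose wells with a live single cell were picked by imaging, so every difference below compares 1 library with another and has no replicate check.

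Class I molecules show peptides from inside the cell to CD8 T cells and carry ligands for receptors of natural killer cells. A heavy chain (HLA-B and HLA-C among the classical chains, HLA-E among the non-classical ones) folds with the invariant light chain beta-2-microglobulin, the product of B2M. The proteasome, in which the inducible subunit PSMB9 can take the place of PSMB6, cuts proteins into peptides, TAP1 and TAP2 form the pump that brings them into the endoplasmic reticulum, and tapasin (TAPBP) holds an empty class I molecule at that pump. NLRC5 is the transactivator of class I genes and acts through the SXY module of their promoters, and interferons induce the whole pathway through IRF factors. Neuroblastoma is known for low surface class I, above all in tumours with amplified MYCN.

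Of the 9 genes 2 had an appreciable level, and 7 were at or near 0 in all 4 libraries. In summed counts B2M stood between 115 and 138 CPM (counts per 1000000 counts) and TAPBP between 7.41 and 15.2 CPM. HLA-B, HLA-C, HLA-E, TAP1, TAP2, NLRC5 and PSMB9 each stayed under 1 CPM in every library, a limit chosen after the values were seen. The 3 drug libraries held 22636509 counts (13cRA), 46171287 counts (Doxazosin) and 72192743 counts (Combination) over 318 13cRA, 239 Doxazosin and 287 Combination cells kept, against 48164169 counts over 353 DMSO cells. A count of 0 therefore allows up to 0.133 CPM in 13cRA, 0.0650 in Doxazosin, 0.0416 in Combination and 0.0623 in DMSO, taking 3 counts as the limit. Of the noradrenergic neuroblastoma markers, 10 of 13 reached 5 CPM in the 13cRA, Doxazosin and DMSO libraries and 9 in Combination. The catecholamine enzymes TH and DBH had 0 to 6 counts per library. In summed counts, fewer cells that use a gene and less RNA per cell cannot be told apart, and shares of cells are given for that reason.

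**Figure D1:**
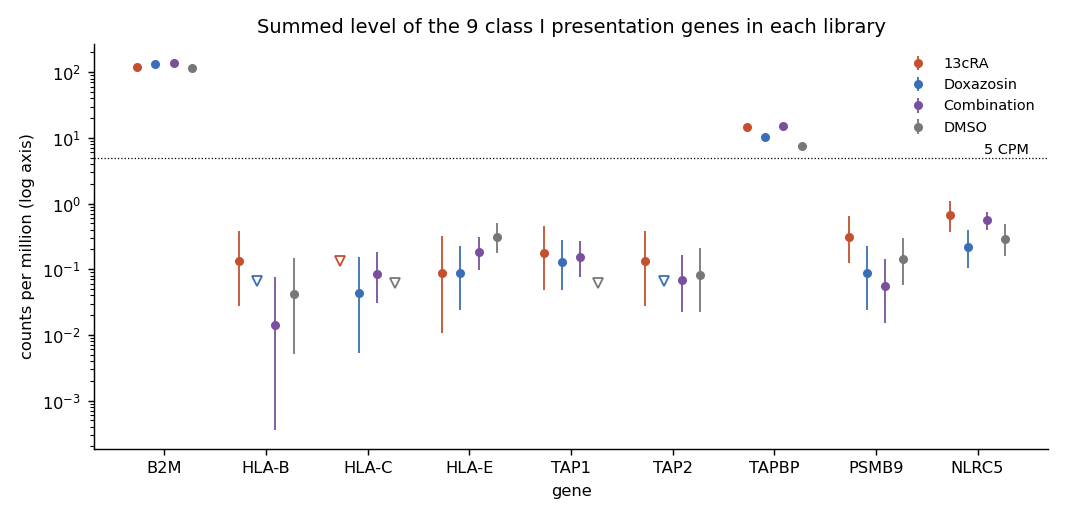
Summed level of the 9 class I presentation genes, in CPM on a log axis, in the 13cRA, Doxazosin, Combination and DMSO libraries. Points are levels with exact 95% Poisson intervals; open triangles mark genes with 0 counts at the level that 3 counts would give, and the dotted line is 5 CPM. B2M and TAPBP stand above the line in every library and the other 7 genes stand below 1 CPM.

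The promoters of these genes are shown so that the letters ahead of the measured genes can be set beside those ahead of genes near 0. RefSeq (GRCh38.p14) gave a window for 7 of the 9 genes; HLA-E and NLRC5 were not matched. Each line gives the 250 bases before the annotated start, 5′ to 3′ on the gene's strand. Capitals mark matches, on either strand, to the interferon-stimulated response element (GAAA, any 2 bases and GAAA again), the NF-kB letters GGGGATTCC and a longer form with CC after them, the Y box CCAAT, the X2 box TGACG and the nuclear receptor half-site AGGTCA. The lines run from B2M (chr15:44711267-44711516, plus strand) and TAPBP (chr6:33314079-33314328, minus strand) to HLA-B (chr6:31357180-31357429, minus strand), HLA-C (chr6:31272093-31272342, minus strand) and TAP1 (chr6:32853705-32853954, minus strand).
B2M: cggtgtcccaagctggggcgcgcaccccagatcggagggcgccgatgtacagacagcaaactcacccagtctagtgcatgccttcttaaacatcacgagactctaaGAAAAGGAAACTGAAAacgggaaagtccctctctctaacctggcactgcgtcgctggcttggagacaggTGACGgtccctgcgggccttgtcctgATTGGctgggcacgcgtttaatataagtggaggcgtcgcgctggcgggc
TAPBP: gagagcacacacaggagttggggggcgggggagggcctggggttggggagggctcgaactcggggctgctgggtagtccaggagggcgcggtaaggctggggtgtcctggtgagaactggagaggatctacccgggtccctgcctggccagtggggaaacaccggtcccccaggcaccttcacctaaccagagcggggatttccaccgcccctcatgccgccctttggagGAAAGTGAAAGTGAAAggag
HLA-B: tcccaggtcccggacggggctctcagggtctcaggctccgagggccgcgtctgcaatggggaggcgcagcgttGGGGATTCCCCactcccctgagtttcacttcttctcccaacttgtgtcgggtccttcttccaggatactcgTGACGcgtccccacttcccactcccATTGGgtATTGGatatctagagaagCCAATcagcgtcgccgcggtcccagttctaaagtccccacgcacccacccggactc
HLA-C: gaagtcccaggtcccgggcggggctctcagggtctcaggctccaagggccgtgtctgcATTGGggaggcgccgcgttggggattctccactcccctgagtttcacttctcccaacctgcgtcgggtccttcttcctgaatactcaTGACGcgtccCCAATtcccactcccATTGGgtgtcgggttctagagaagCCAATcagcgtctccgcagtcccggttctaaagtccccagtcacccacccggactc
TAP1: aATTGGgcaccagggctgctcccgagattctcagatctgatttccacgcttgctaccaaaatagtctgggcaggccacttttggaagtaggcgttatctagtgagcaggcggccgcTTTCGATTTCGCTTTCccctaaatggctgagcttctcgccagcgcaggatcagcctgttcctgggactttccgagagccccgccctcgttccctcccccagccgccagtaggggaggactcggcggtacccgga

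B2M, at over 100 CPM, held 2 overlapping response elements, 1 X2 box and 1 Y box. TAPBP held 2 overlapping response elements in its last 20 bases and none of the other letters. HLA-B and HLA-C, both near 0, each held 1 X2 box, 102 to 106 and 101 to 105 bases before the start, with 3 and 4 Y boxes, and HLA-B also held the NF-kB letters, in which the shorter form lies inside the longer one. TAP1 held 2 overlapping response elements and 1 Y box, and TAP2 (chr6:32838740-32838989, minus strand, not printed) 1 response element and 1 X2 box. The PSMB9 window (chr6:32853942-32854191, plus strand) starts from the opposite side of the same stretch, since the annotated starts of TAP1 and PSMB9 lie 488 bases apart. The PSMB9 window held 1 Y box and 1 X2 box and none of the response element letters. A second TAP1 window (chr6:32852762-32853011, minus strand, not printed) held none of the letters searched. The half-site was in none of the windows searched. Of 35116 promoter windows of this length, 3.02% held the response element, 0.0313% the long and 0.253% the short NF-kB letters, 32.0% the Y box, 21.2% the X2 box and 12.1% the half-site. A match is a run of letters and not a shown binding site.

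Among the chains, B2M was the abundant member. Its level was 118 CPM (exact 95% Poisson interval 114 to 123) in 13cRA, 135 CPM (131 to 138) in Doxazosin and 138 CPM (135 to 141) in Combination, against 115 CPM (112 to 118) in DMSO. Per kb of transcript this was 117 CPM in 13cRA, 133 CPM in Doxazosin, 136 CPM in Combination and 113 CPM in DMSO, above 95.6% of protein-coding genes in DMSO. Combination and Doxazosin thus stood next to each other at the top, with a log2 ratio of 0.04 whose interval (-0.01 to 0.08) held 0. 13cRA and DMSO stood next to each other below, with a log2 ratio of 0.05 (-0.02 to 0.11). Against DMSO, on the log2(CPM + 1) scale, B2M was higher by 0.23 in Doxazosin and by 0.27 in Combination, close to the median absolute difference of 0.20 and 0.25 over all genes measured in these comparisons. The 13cRA difference of 0.04 turned negative under TMM scaling (-0.29) and under DESeq2 size factors (-0.25), which shift all log2 ratios of this comparison by -0.34 and -0.30.

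B2M was spread unevenly over the 13cRA cells. The median kept cell had 53.2 CPM in 13cRA, 106 CPM in Doxazosin and 118 CPM in Combination, against 92.3 CPM in DMSO. In 13cRA 19 of 318 cells held at least 50% of all B2M counts, in Doxazosin 40 of 239 and in Combination 47 of 287, while in DMSO 64 of 353 were needed. The cell richest in B2M held 17.4% of the 13cRA counts, 6.20% in Doxazosin, 7.97% in Combination and 2.05% in DMSO. Without that cell in each library the levels were 98.8 CPM in 13cRA, 128 CPM in Doxazosin, 130 CPM in Combination and 113 CPM in DMSO, so that 13cRA then lay 0.19 below DMSO on the log2 scale rather than 0.04 above.

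Cells differ in depth, with a median of 59200 counts in 13cRA, 171793 in Doxazosin and 221558 in Combination, against 122615 in DMSO. Cells with at least 34000 counts were therefore thinned at random to that number, at which 1 count equals 29.4 CPM, and shallower cells were left out: 69 of 318 in 13cRA, 4 of 239 in Doxazosin and 17 of 287 in Combination, against 25 of 353 in DMSO. The thinned shares of 13cRA thus rest on its deeper cells. B2M was then seen in 64.7% of 249 13cRA cells (58.4 to 70.6, an exact 95% binomial interval), in 86.0% of 235 Doxazosin cells (80.8 to 90.1) and in 85.6% of 270 Combination cells (80.8 to 89.5), against 84.8% of 328 DMSO cells (80.4 to 88.5). At full depth it was seen in 64.5% of cells in 13cRA, 95.4% of cells in Doxazosin, 88.2% of cells in Combination and 89.8% in DMSO. In 13cRA the share was 20.1 percentage points lower than in DMSO although the summed level was not, and no order of expression is read from it. Genes of like level showed it too: over 212 genes with 100 to 140 CPM in both libraries, the share was lower in 13cRA than in DMSO by a median of 13.4 points (5th to 95th percentile -24.0 to -3.10), and 31 of them differed by more than B2M. Thinned 13cRA cells also held fewer genes, a median of 3897, against 4771 in Doxazosin, 4703 in Combination and 4694 in DMSO, and the part of this in the B2M share was not tested. For Doxazosin and Combination the B2M share differed from DMSO by 1.2 and 0.80 points, within the range of the genes of like level in those comparisons (-4.47 to 7.07 and -6.62 to 5.55).

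**Figure D2:**
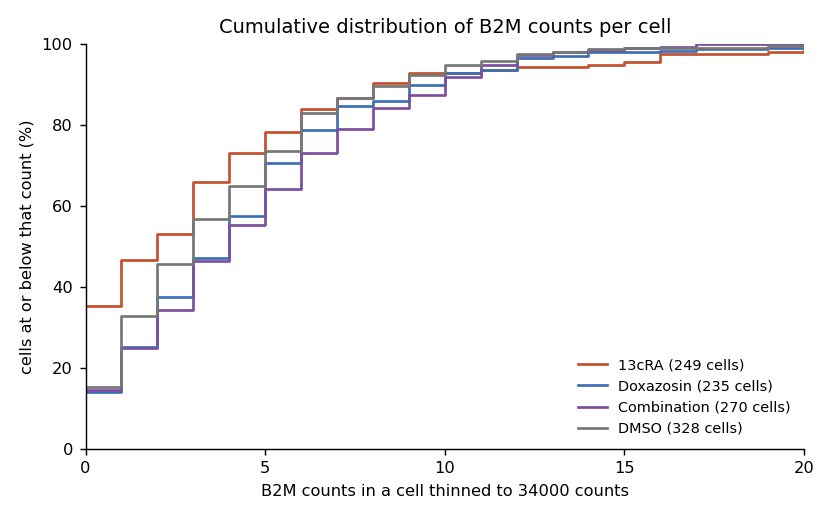
Cumulative share of cells, in percent, by the number of B2M counts in a cell thinned to 34000 counts, for 249 13cRA, 235 Doxazosin, 270 Combination and 328 DMSO cells. The 13cRA line starts higher than the other 3, since 35.3% of its cells had no B2M count.

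The heavy chains HLA-B, HLA-C and HLA-E were close to absent from the table. HLA-B, which presents peptides to CD8 T cells, had 3 counts in 13cRA, 0 in Doxazosin and 1 in Combination, against 2 in DMSO. HLA-C, a main ligand of killer cell inhibitory receptors, had 0 counts in 13cRA, 2 counts in Doxazosin, 6 counts in Combination and 0 in DMSO. HLA-E, whose complex is read by the NKG2A receptor, had 2 counts in 13cRA, 4 in Doxazosin and 13 in Combination, against 15 in DMSO. Together the 3 chains came to 0.221 CPM (0.0717 to 0.515) in 13cRA, 0.130 CPM (0.0477 to 0.283) in Doxazosin and 0.277 CPM (0.169 to 0.428) in Combination, against 0.353 CPM (0.206 to 0.565) in DMSO. The 4 intervals overlapped one another, and no direction is given for the sum. HLA-E alone was lower in Doxazosin than in DMSO beyond counting error (log2 ratio -1.85, interval -3.90 to -0.20), but 8 of the 15 DMSO counts came from 1 cell. HLA-B had no count in any thinned Doxazosin, Combination or DMSO cell. This sets no limit on cells that express it under the level of 1 thinned count, and at full depth 1 Combination cell and 1 DMSO cell held it.

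The non-classical chains HLA-F (0.574 to 1.59 CPM) and HLA-G (0 to 14 counts) were low, and 8 class I pseudogenes, looked up after the values were seen, stayed at or below 0.574 CPM. Heavy chain genes are near-identical and vary between people, and how reads shared among them were counted is not given in the sources used here, so the split of counts between HLA-B, HLA-C and their relatives is uncertain.

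**Figure D3:**
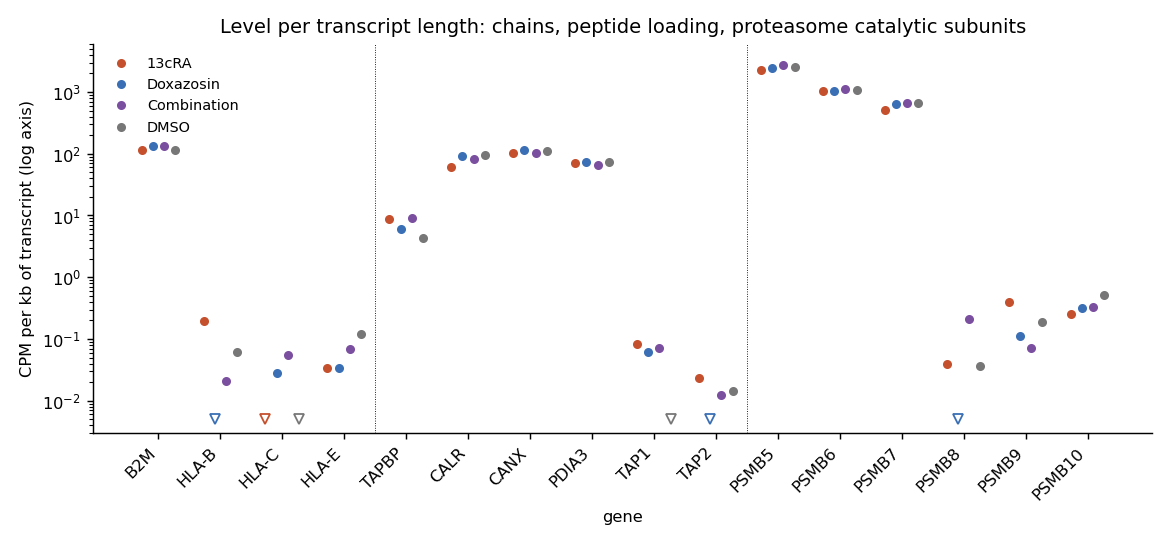
Level per kb of transcript (CPM per kb, log axis) of chains, peptide loading genes and proteasome catalytic subunits, parted by dotted lines, in the 13cRA, Doxazosin, Combination and DMSO libraries. Open triangles near the lower edge mark genes with 0 counts. B2M, CALR, CANX and PDIA3 lie between 62.0 and 136 CPM per kb, the standard subunits PSMB5, PSMB6 and PSMB7 higher, and the inducible subunits PSMB8, PSMB9 and PSMB10 below 1 CPM per kb.

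In the peptide loading complex the pump was as low as the heavy chains, whereas tapasin and the general chaperones were present. TAP1 had 4 counts in 13cRA, 6 in Doxazosin and 11 in Combination, against 0 in DMSO. These counts came from 2 cells in 13cRA, 3 in Doxazosin and 3 in Combination, and 8 of the 11 Combination counts from 1 cell. TAP2 had 3 counts in 13cRA, 0 in Doxazosin and 5 in Combination, against 4 in DMSO. TAPBP had 14.6 CPM (13.1 to 16.3) in 13cRA, 10.2 CPM (9.26 to 11.1) in Doxazosin and 15.2 CPM (14.3 to 16.1) in Combination, against 7.41 CPM (6.66 to 8.22) in DMSO. Per kb of transcript this was 8.67 CPM in 13cRA, 6.02 CPM in Doxazosin, 9.0 CPM in Combination and 4.40 CPM in DMSO.

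All 3 drug libraries lay above DMSO for TAPBP, by 0.89 in 13cRA, 0.41 in Doxazosin and 0.94 in Combination on the log2(CPM + 1) scale. Without the pseudocount the log2 ratios were 0.98 (0.76 to 1.2) in 13cRA, 0.45 (0.25 to 0.66) in Doxazosin and 1.03 (0.86 to 1.21) in Combination. In summed CPM Combination and 13cRA did not differ beyond counting error (log2 ratio 0.05, interval -0.13 to 0.23), but across the alternatives this difference ran from -0.65 in thinned cells to 0.34 with TMM factors, and was -0.34 without the richest cell of each library. Combination lay above Doxazosin by a log2 ratio of 0.58 (0.42 to 0.74). These sums rested on few cells: 1 cell held 127 of 469 counts in Doxazosin (27.1%) and 1 cell 341 of 1095 in Combination (31.1%), against 25 of 331 in 13cRA (7.55%) and 22 of 357 in DMSO (6.16%). Without the richest cell of each library the levels were 13.6 CPM in 13cRA, 7.51 CPM in Doxazosin and 10.5 CPM in Combination, against 6.98 CPM in DMSO. The log2 differences from DMSO were then 0.87 in 13cRA, 0.09 in Doxazosin and 0.53 in Combination. In thinned cells the Doxazosin difference was -0.28 and that of Combination 0.24, while 13cRA kept 0.88. A TAPBP count was seen in 18.9% of thinned 13cRA cells (14.2 to 24.3), 14.5% of Doxazosin cells (10.2 to 19.6) and 15.2% of Combination cells, against 13.7% of DMSO cells (10.2 to 17.9), and all 4 intervals overlapped. Such a level lies under that of 1 count in a thinned cell.

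Of 16 other genes of peptide loading and trimming 13 were measured, that is, had at least 5 CPM in at least 1 library of a comparison. Of these 6 were higher and 7 lower in 13cRA than in DMSO (median -0.05), 5 higher and 8 lower in Doxazosin (median -0.03), and 4 higher and 9 lower in Combination (median -0.16), with none past 2-fold. Calreticulin (CALR), a lectin chaperone of class I folding, had 118 CPM in 13cRA, 173 CPM in Doxazosin and 158 CPM in Combination, against 185 CPM in DMSO. Its log2 differences from DMSO were -0.64 in 13cRA, -0.10 in Doxazosin and -0.23 in Combination. Calnexin (CANX), which holds new heavy chains, differed from DMSO by -0.10 in 13cRA, 0.06 in Doxazosin and -0.10 in Combination, and the disulfide isomerase PDIA3, also known as ERp57, by -0.05 in 13cRA, -0.03 in Doxazosin and -0.16 in Combination. LNPEP, an aminopeptidase of the endosomal route of cross-presentation, had 31.7 CPM in 13cRA, 19.1 CPM in Doxazosin and 30.1 CPM in Combination, against 18.5 CPM in DMSO. SPPL3, an intramembrane protease, differed by 0.48 in 13cRA, 0.08 in Doxazosin and 0.27 in Combination, and the translocon subunit SEC61A1 by -0.37 in 13cRA, -0.16 in Doxazosin and -0.48 in Combination. The peptide editor TAPBPL (1.15 to 2.56 CPM) and the trimming enzyme ERAP1 (1.25 to 2.26 CPM) stayed below the 5 CPM limit.

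The proteasome was represented by its standard catalytic subunits. PSMB9 had 7 counts in 13cRA, 4 in Doxazosin and 4 in Combination, against 7 in DMSO. PSMB6, whose place PSMB9 takes in the immunoproteasome, had 20061 counts in 13cRA, 41181 counts in Doxazosin, 68482 counts in Combination and 44280 in DMSO. PSMB8, the inducible counterpart of PSMB5, had 1 count in 13cRA, 0 in Doxazosin and 17 in Combination, against 2 in DMSO, and PSMB10, that of PSMB7, had 7 counts in 13cRA, 18 counts in Doxazosin, 29 counts in Combination and 30 in DMSO. Per kb of transcript PSMB5 stood at 2289 CPM in 13cRA, 2423 CPM in Doxazosin, 2740 CPM in Combination and 2571 CPM in DMSO. Of the 9 genes listed as immunoproteasome subunits, activators and standard subunits 7 were measured, with 1 higher and 6 lower in 13cRA than in DMSO, 2 higher and 5 lower in Doxazosin, and 5 higher and 2 lower in Combination. None passed 2-fold. PSME2, a subunit of the PA28 activator that interferon induces, had 103 CPM in 13cRA, 51.3 CPM in Doxazosin and 77.4 CPM in Combination, against 69.7 CPM in DMSO, and PSME3, the nuclear PA28 subunit, had 226 CPM in 13cRA, 342 CPM in Doxazosin, 280 CPM in Combination and 370 CPM in DMSO. For PSMB7 the log2 differences from DMSO were -0.35 in 13cRA, -0.06 in Doxazosin and 0.01 in Combination, and for PSMB5 -0.17 in 13cRA, -0.09 in Doxazosin and 0.09 in Combination.

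NLRC5, the class I transactivator, was seen at 15 counts in 13cRA, 10 in Doxazosin and 40 in Combination, against 14 in DMSO. The levels were 0.663 CPM (0.371 to 1.09) in 13cRA, 0.217 CPM (0.104 to 0.398) in Doxazosin and 0.554 CPM (0.396 to 0.754) in Combination, against 0.291 CPM (0.159 to 0.488) in DMSO. NLRC5 was found in 6 of 249 thinned 13cRA cells, 3 of 235 Doxazosin cells and 2 of 270 Combination cells, against 1 of 328 DMSO cells. Of 32 other regulators of class I transcription 23 were measured in the comparison of 13cRA with DMSO, 11 of them higher and 12 lower (median -0.06), and 22 in each of the other comparisons with DMSO, with medians of -0.01 in Doxazosin and 0.02 in Combination. RFX5, which binds the SXY module, had 22.9 CPM in 13cRA, 21.6 CPM in Doxazosin, 24.3 CPM in Combination and 18.3 CPM in DMSO. RFXAP, another factor of that module, had 5.52 CPM in 13cRA, 2.97 CPM in Doxazosin, 3.03 CPM in Combination and 5.21 CPM in DMSO. In Doxazosin and Combination RFXAP was thus under the 5 CPM limit. NFYC, a subunit of the Y box factor NF-Y, had 27.1 CPM in 13cRA, 59.2 CPM in Doxazosin and 48.1 CPM in Combination, against 52.9 CPM in DMSO (log2 differences -0.94 in 13cRA, 0.16 in Doxazosin and -0.14 in Combination). IRF1, the interferon-gamma response factor, had 0.884 CPM in 13cRA, 0.650 CPM in Doxazosin, 2.15 CPM in Combination and 1.91 CPM in DMSO.

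NR2F1 (COUP-TF1), an orphan nuclear receptor that retinoids induce in many cells and that has been described at class I enhancers, was the 1 of 23 measured regulators past 2-fold in 13cRA against DMSO, where 10.8% of all genes were. It had 15.3 CPM in 13cRA, 5.59 CPM in Doxazosin and 9.41 CPM in Combination, against 4.71 CPM in DMSO. Its log2 differences from DMSO were 1.52 in 13cRA, 0.21 in Doxazosin and 0.86 in Combination. JAK2, a kinase of the interferon-gamma receptor, differed by 0.92 in 13cRA, 0.29 in Doxazosin and -0.14 in Combination. It reached the 5 CPM limit in 13cRA alone (5.88 CPM), against 3.44 CPM in Doxazosin, 2.30 CPM in Combination and 2.64 CPM in DMSO. Its Doxazosin and Combination differences from DMSO thus do not count as measured. IFNAR1, a chain of the type I interferon receptor, differed by 0.90 in 13cRA, 0.79 in Doxazosin and 0.03 in Combination, but 1 cell held 46.7% of its 13cRA counts and 1 cell 23.0% of its Doxazosin counts. The polycomb proteins, known to silence class I and its processing genes in some tumours, were all measured (10 of 10), with 6 higher and 4 lower in 13cRA than in DMSO and 5 and 5 in each of the other comparisons with DMSO. JARID2, a cofactor of the PRC2 complex and 1 of 10 past 2-fold in 13cRA, beside the same 10.8% of all genes, had 177 CPM in 13cRA, 73.8 CPM in Doxazosin and 101 CPM in Combination, against 83.1 CPM in DMSO. RBBP7, a histone-binding subunit of PRC2, differed by -0.74 in 13cRA, -0.02 in Doxazosin and -0.54 in Combination, its relative RBBP4 by -0.53 in 13cRA, 0.26 in Doxazosin and -0.09 in Combination, and PCGF1, a subunit of a PRC1 complex, by 0.31 in 13cRA, -0.24 in Doxazosin and 0.53 in Combination. EZH2, the methyltransferase of PRC2, named after its values were seen, had 77.7 CPM in 13cRA, 80.8 CPM in Doxazosin, 52.5 CPM in Combination and 94.0 CPM in DMSO.

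Against DMSO, 0 of the 2 measured class I genes passed 2-fold in 13cRA, where 10.8% of 10032 genes did, in Doxazosin, where 1.78% of 9581 did, or in Combination, where 5.47% of 9755 did. At 1.5-fold TAPBP passed in 13cRA and in Combination, beside 30.1% and 16.8% of all genes, and neither gene passed in Doxazosin, where 8.57% of all genes did. The TAPBP call was lost in 13cRA with no cell filter (0.54), and in Combination without the richest cells (0.53), in thinned cells (0.24), in thinned cells with 4000 to 4600 genes (0.28) and with the mean of per-cell CPM (0.58). The median difference over the pair was 0.47 in 13cRA, 0.32 in Doxazosin and 0.60 in Combination, beside -0.00, -0.02 and -0.02 over all genes of the same comparisons. These comparisons share the DMSO library. Combination against 13cRA gave a median of 0.14 and Combination against Doxazosin one of 0.29, with 0 of 2 past 2-fold in each, where 8.84% of 9993 and 5.91% of 9718 genes were. On the log2 scale the Combination level departed from the sum of both single drug differences by -0.01 for B2M and by -0.36 for TAPBP, while the other 7 genes were too low for such a value. With 2 genes behind each median, the values describe B2M and TAPBP and not the pathway.

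**Figure D4:**
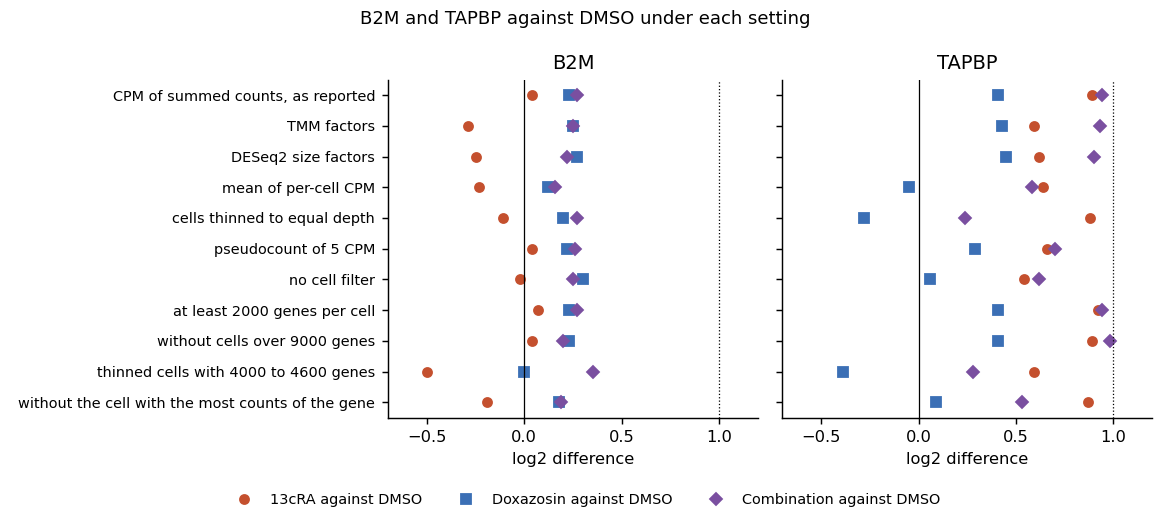
Log2 difference from DMSO of B2M and TAPBP in the 13cRA, Doxazosin and Combination libraries under 11 ways of scaling, filtering or thinning; the dotted line marks a 2-fold difference. No point passes 2-fold; B2M lies on both sides of 0 in 13cRA, and TAPBP lies on both sides of 0 in Doxazosin.

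Most cells held at most 1 of the 9 genes. After thinning the median cell held 1 in every library, mostly B2M, and 26.9% of 13cRA cells, 11.9% of Doxazosin cells and 12.2% of Combination cells held none, against 14.3% of DMSO cells. Exactly 2 genes were seen in 13.7% of thinned 13cRA cells, 14.9% of Doxazosin cells and 13.3% of Combination cells, against 14.0% of DMSO cells, and at full depth in 17.0% of 13cRA cells, 30.1% of Doxazosin cells and 27.5% of Combination cells, against 25.8% of DMSO cells. After thinning B2M and TAPBP were seen together in 12.9% of 13cRA cells, 12.3% of Doxazosin cells and 13.0% of Combination cells, against 13.1% of DMSO cells. The product of the separate shares is 12.2% in 13cRA, 12.4% in Doxazosin, 13.0% in Combination and 11.6% in DMSO. Any of the 7 low genes was seen in 12 of 249 thinned 13cRA cells (4.82%, interval 2.51 to 8.27), 6 of 235 Doxazosin cells (2.55%, 0.943 to 5.47) and 4 of 270 Combination cells (1.48%, 0.405 to 3.75), against 4 of 328 DMSO cells (1.22%, 0.333 to 3.09). At full depth the shares came to 6.29% in 13cRA, 7.11% in Doxazosin, 6.62% in Combination and 6.23% in DMSO. The 7 genes summed to 1.5 CPM (1.04 to 2.10) in 13cRA, 0.563 CPM (0.368 to 0.825) in Doxazosin and 1.11 CPM (0.879 to 1.38) in Combination, against 0.872 CPM (0.628 to 1.18) in DMSO. The 13cRA and Doxazosin intervals of this sum did not overlap, nor did those of Combination and Doxazosin. The Combination sum, however, drew 49 of its 80 counts from 4 cells with over 9000 detected genes. Without those cells it was 0.445 CPM, below that of Doxazosin, so no order of Combination and Doxazosin is given. Among single low genes NLRC5 was higher beyond counting error in Combination than in Doxazosin (log2 ratio 1.36, interval 0.33 to 2.52), and by less in 13cRA than in DMSO (1.19, 0.04 to 2.35) and in Combination than in DMSO (0.93, 0.02 to 1.92), with 11 of the 40 Combination counts in 1 cell. PSMB9 was lower in Combination than in 13cRA (-2.48, -4.70 to -0.50), on 4 and 7 counts. For TAP1, at 0 counts in DMSO, the interval of each drug library's ratio to DMSO lay above 0. That interval takes counts as independent, but the TAP1 counts came from 2 cells in 13cRA, 3 in Doxazosin and 3 in Combination. At full depth TAP1 was seen in 0.629% of 13cRA cells (0.0763 to 2.25) and 1.26% of Doxazosin cells (0.260 to 3.62). It was seen in 1.05% of Combination cells (0.216 to 3.02) and 0% of DMSO cells (0 to 1.04). These share intervals overlapped, and no direction is given for TAP1.

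**Figure D5:**
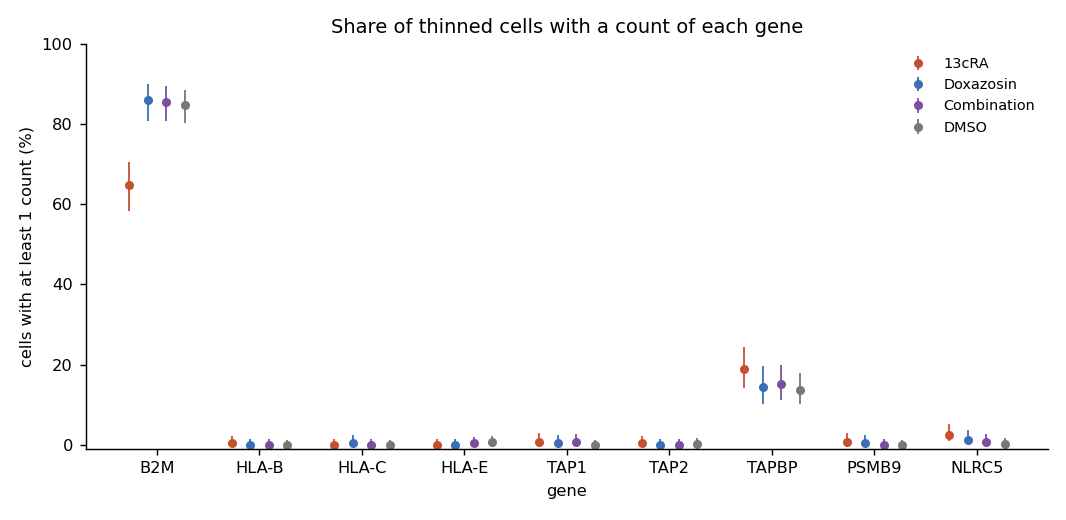
Share of cells, in percent, with at least 1 count of each of the 9 genes after thinning to 34000 counts, in 13cRA, Doxazosin, Combination and DMSO, with exact 95% binomial intervals. B2M is seen in 64.7% to 86.0% of cells, TAPBP in 13.7% to 18.9%, and each of the other 7 genes in at most 2.41%.

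A handful of cells carried most of the low genes in Combination. Of 287 kept Combination cells 4 had over 9000 detected genes, and no kept cell of the other libraries did. These 4 cells held 49 of the 80 counts of the 7 low genes (61.2%). The Combination cell with the most class I genes had 6 of the 9, 17 counts of the 7 low genes and 14436 detected genes. Without the 4 cells the 7 genes summed to 0.445 CPM in Combination, below the 0.563 CPM in Doxazosin. In cells that had been left out, for few genes or a high mitochondrial share, B2M was lower: 25.7 CPM (21.1 to 31.2) in 37 13cRA cells, 4.0 CPM (1.61 to 8.25) in 13 Doxazosin cells and 6.53 CPM (4.85 to 8.62) in 20 Combination cells, against 9.5 CPM (6.90 to 12.7) in 20 DMSO cells. In these cells TAPBP stood at 11.3 CPM in 13cRA and 12.9 CPM in Combination, with 0 counts in Doxazosin, against 29.8 CPM in DMSO.

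The interferon programme that class I genes belong to was measured in few members. Of 24 interferon-stimulated genes 4 were measured in 13cRA against DMSO (2 higher, 2 lower), 5 in Doxazosin (4 higher, 1 lower) and 4 in Combination (2 higher, 2 lower), and none passed 2-fold. ISG15, the ubiquitin-like product of the response, had 0 counts in 13cRA, 2 in Doxazosin and 1 in Combination, against 0 in DMSO, and was looked up after its values were seen. IFI44 was in contrast seen in 76.3% of thinned 13cRA cells, 83.4% of Doxazosin cells and 87.8% of Combination cells, against 77.4% of DMSO cells. Its level was 255 CPM in 13cRA, 185 CPM in Doxazosin, 318 CPM in Combination and 172 CPM in DMSO. GBP2, a guanylate-binding protein, had 115 CPM in 13cRA, 71.9 CPM in Doxazosin and 48.7 CPM in Combination, against 57.4 CPM in DMSO. IFIT5, an RNA-binding protein, had 10.6 CPM in 13cRA, 25.1 CPM in Doxazosin, 17.9 CPM in Combination and 19.6 CPM in DMSO, and UBE2L6, the conjugating enzyme of the ISG15 pathway, 37.8 CPM in 13cRA, 44.0 CPM in Doxazosin, 56.1 CPM in Combination and 45 CPM in DMSO.

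No class II presentation gene was measured: 11 genes summed to 3.62 CPM in 13cRA, 1.36 CPM in Doxazosin and 4.17 CPM in Combination, against 1.47 CPM in DMSO. Of 16 ligands of natural killer cells and immune checkpoints 5 were measured, 3 higher and 2 lower in 13cRA, 0 higher and 5 lower in Doxazosin, and 1 higher and 4 lower in Combination, none past 2-fold. CD58, the adhesion ligand of CD2, had 5.21 CPM in 13cRA, 7.36 CPM in Doxazosin, 6.51 CPM in Combination and 10.4 CPM in DMSO. PVR (CD155), a ligand of DNAM-1 and TIGIT, had 18.0 CPM in 13cRA, 8.30 CPM in Doxazosin, 9.36 CPM in Combination and 10.8 CPM in DMSO. CD276 (B7-H3), a surface target in neuroblastoma, had 46.9 CPM in 13cRA, 24.7 CPM in Doxazosin, 25.4 CPM in Combination and 31.0 CPM in DMSO, with 26.0% of the 13cRA counts in 1 cell. CD47, the ligand that restrains phagocytosis, had 30.0 CPM in 13cRA, 38.6 CPM in Doxazosin, 34.4 CPM in Combination and 41.3 CPM in DMSO.

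Blood cells are rich in class I. Of 10 leukocyte markers CORO1A alone reached 5 CPM, with 7.55 CPM in 13cRA, 3.51 CPM in Doxazosin and 19.4 CPM in Combination, against 10.9 CPM in DMSO, and 1 cell held 50.7% of its Combination counts. With it the list summed to 8.61 CPM in 13cRA, 5.72 CPM in Doxazosin and 20.2 CPM in Combination, against 12.2 CPM in DMSO. The other 9 summed to 1.06 CPM in 13cRA, 2.21 CPM in Doxazosin and 0.859 CPM in Combination, against 1.31 CPM in DMSO. The 6 endothelial markers summed to 23.9 CPM in 13cRA, 5.91 CPM in Doxazosin, 14.4 CPM in Combination and 6.31 CPM in DMSO. CLDN5 made up most of the sum in 13cRA (19.7 CPM) and in Combination (11.1 CPM), while PECAM1, CDH5 and VWF stayed at or below 1.19 CPM in all 4 libraries. The 9 fibroblast and mesenchymal markers summed to 436 CPM in 13cRA, 314 CPM in Doxazosin, 250 CPM in Combination and 391 CPM in DMSO, nearly all of it VIM (404 CPM in 13cRA, 294 CPM in Doxazosin, 235 CPM in Combination and 366 CPM in DMSO). The part of any of these in the class I values was not tested.

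Of the 9 genes 7 lie in the MHC on chromosome 6. In GENCODE 29 on GRCh38 the MHC members run from HLA-E (chr6:30489467-30494205) over HLA-C (chr6:31268749-31272130), HLA-B (chr6:31269491-31357188), TAP2 (chr6:32821833-32838780), PSMB9 (chr6:32844136-32859585) and TAP1 (chr6:32845209-32853978) to TAPBP (chr6:33299694-33314387). B2M is at chr15:44711487-44718877 and NLRC5 at chr16:56989485-57083531. From HLA-F to TAPBP (chr6:29722775-33314387) there are 143 protein-coding genes, of which 56 reached 5 CPM in 13cRA, 54 in Doxazosin and 56 in Combination, against 54 in DMSO (37.8% to 39.2%), beside 45.4% to 47.0% of all protein-coding genes. Exons annotated to another gene cover 18.9% of the exonic bases of HLA-B, 32.3% of TAP2, 9.49% of TAP1, 5.66% of PSMB9 and 1.40% of HLA-C, and none of those of HLA-E, NLRC5, TAPBP or B2M. Reads from shared stretches cannot be assigned without knowing how the counting was set.

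The cells' summed count of HLA-B, HLA-C, HLA-E and B2M, nearly all B2M, was set against every gene seen in at least 20% of the 1082 thinned cells. The 5 genes most like it were RHOA, MDH1, PRDX4, UBE2N and ILF2, with a mean Pearson correlation over the 4 libraries of 0.19 to 0.21, where the median of 5888 genes was 0.04. Cells of a library share depth and preparation, the counts are sparse, and correlations this weak are no finding.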

How the data were processed

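Single-cell RNA sequencing measured 4 samples of CHP134 cells, 1 per treatment. The authors deposited 1 table of raw counts, 1287 cells by 60651 Ensembl gene IDs, and its column names give the treatment of each cell. Per the labels' protocols, imaging picked the wells that held a live single cell, and cDNA was full length. According to the submitters' processing notes, reads went through STAR 2.7.8a, featureCounts, fastp 0.23.3 and Seurat 4.3.0, in an order not stated, with GRCh37 and GRCh38.p13 as builds. Strandedness and the handling of shared reads were not given there. IDs were matched without version to GENCODE 29 (60437 matched).

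Cells with at least 500 genes and at most 25% mitochondrial counts were kept (1197 of 1287). No doublet caller was run. Counts were summed per library, scaled to CPM, and compared as log2((CPM + 1)/(CPM + 1)); calls and medians used genes that reached 5 CPM in either library. Levels between genes are CPM per kb of the median protein-coding transcript. No p-value, standard error or test across cells was computed, because each treatment has 1 sample. Intervals (95%, exact Poisson or binomial) and the limit of 3 counts cover counting error only, or for shares the sampling of cells. For shares, cells were thinned to 34000 counts (1082 cells). The calculation was tested on simulated data.

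The 9 genes, the companion lists and the rule for named genes were chosen with earlier results of these data known. The rule named all 9 genes, up to 4 measured genes per companion list with the largest difference between 13cRA and DMSO, fixed partners, and the 5 genes most like the chains across cells. PSMB6, HLA-F, HLA-G, ISG15, EZH2, the class I pseudogenes and the single cell type markers named fall outside it and were chosen after their values were seen. Some genes of the companion lists are counted there but not reported here by name. Alternatives used edgeR 4.0.16 TMM factors, DESeq2 1.42.0 size factors, other filters, thinning and single cells left out. Python 3.11.15 with numpy 2.4.6, scipy 1.17.1 and pandas 2.3.3 was used.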

Additional observations from a re-analysis of the deposited data

How the results depend on the processing

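The count of class I genes past 2-fold stayed at 0 in all 5 comparisons under every alternative scaling, filter and thinning; only the 1.5-fold limit gave 1 gene (TAPBP) in 13cRA against DMSO and 1 in Combination against DMSO, and other settings took TAPBP below that limit in both. The count of genes under 1 CPM in every library was 7 of 9, and 6 among thinned cells with 4000 to 4600 genes, where 1 gene reached 1.14 CPM; this count and its alternatives were chosen after seeing the data. The median in 13cRA against DMSO (0.47) lies between values as far apart as 0.04 for B2M and 0.89 for TAPBP, so no setting moved it beyond that range; it was 0.15 with TMM factors, 0.19 with DESeq2 size factors, 0.21 with the mean of per-cell CPM, 0.26 with no cell filter, 0.16 with no filter on low values and 0.05 in thinned cells with 4000 to 4600 genes. The other medians over B2M and TAPBP moved beyond the range of the pair as follows, and the cause was not tested. In Doxazosin against DMSO (0.32) the median was 0.04 with the mean of per-cell CPM, -0.04 in thinned cells, 0.18 with no cell filter, -0.19 in thinned cells with 4000 to 4600 genes, 0.13 without the cell richest in each gene and -0.06 with no filter on low values. In Combination against DMSO (0.60) it was 0.25 in thinned cells and 0.12 with no filter on low values. In Combination against 13cRA (0.14) it was 0.44 with TMM factors, 0.37 with DESeq2 size factors, -0.14 in thinned cells, 0.27 in thinned cells with 4000 to 4600 genes, 0.03 without the richest cell and -0.03 with no filter on low values. With no filter on low values the 7 low genes enter, and the pseudocount by construction holds their differences near 0. TAPBP lay above DMSO in 13cRA (0.54 to 0.92) and in Combination (0.24 to 0.98) under all 10 alternatives run on single genes, and B2M in Combination (0.16 to 0.35). No paired analysis was possible because each treatment has 1 sample. Depth limits the 7 low genes: with 0 to 40 counts per library, most of their differences lay within counting error, and those that did not rested on few cells.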
